A study of Mus musculus with 24 samples.

Results

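Cultured Cd31+ liver endothelial cells with silenced P16Ink4a were compared directly with the same population overexpressing P16Ink4a. The comparison took 6 of the 24 libraries of the series, chosen by their labels: P16 shRNA replicates 1, 2 and 3 and P16 replicates 2, 3 and 5. All came from C57BL/6 mice aged 3 months, described as female in the methods, whose Cd31+ cells were captured on beads, cultured, and harvested 1 week after lentiviral transduction. The P16 shRNA was delivered in the pLKO.1 vector, and P16 was expressed as a fusion with GFP from pLenti-C-mGFP-P2A-Puro. Because the vectors differed, vector and P16Ink4a level cannot be told apart in this comparison. The 3 nc shRNA libraries, which carry a non-coding hairpin in pLKO.1, and the 3 empty vector libraries, which carry the GFP vector without insert, were therefore set beside it to show how far the vectors alone differed. Nothing in the labels says that replicates of a group came from separate animals, so p-values measure the spread between these libraries.

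P16Ink4a, encoded by Cdkn2a, binds the cyclin-dependent kinases CDK4 and CDK6 and keeps cyclin D from activating them. The retinoblastoma protein then stays bound to E2F transcription factors, and genes of DNA replication and cell division stay off. The same locus encodes Arf from another first exon, an activator of p53, and both transcripts accumulate in senescent cells, which also secrete cytokines, proteases and growth factors. In the liver, endothelial cells line the larger vessels and the sinusoids, and Cd31 (Pecam1) is found on both.

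The 12 Cd31+ libraries held 15409767 to 23196881 reads counted on genes, so that the floor of 3 counts corresponded to 0.129 to 0.195 CPM (counts per 1e6 counted reads). The endothelial genes Pecam1 (60.5 to 283 CPM) and Cdh5 (46.1 to 251 CPM) were present in all 6 libraries. Other endothelial markers were low, such as Kdr at 1.71 to 25.6 CPM and Nos3 at 0.0552 to 6.63 CPM. Of 25 endothelial markers, 1, Sox17, stayed under 1 CPM in all 6 libraries. Stab2, a scavenger receptor of sinusoidal endothelium, stayed under 1 CPM, whereas its relative Stab1 stood at 6.02 to 196 CPM. Of 15 sinusoidal markers, 4 stayed under 1 CPM in all 6 libraries. Among mesenchymal markers, Col1a1 at 6947 to 19090 CPM and Acta2 at 2120 to 4292 CPM were abundant. Other genes of muscle cells were low, with Tagln at 10.3 to 16.8 CPM and Des at 0.386 to 5.39 CPM. Of 22 mesenchymal markers, 3 stayed under 1 CPM in all 6 libraries. Of the markers of other cells, 13 of 14 hepatocyte and 15 of 15 lymphoid genes stayed under 1 CPM in all 6 libraries, as did 8 of 19 macrophage genes. P16 replicate 5 stood apart, because it held Xist at 646 CPM and no reads from the Y-linked genes Ddx3y, Eif2s3y, Kdm5d and Uty. The other 5 libraries held Ddx3y at 51.2 to 157 CPM and at most 0.0914 CPM of Xist, although the methods name female mice. The only other library of this kind was empty vector replicate 5.

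Cdkn2a itself was far lower with P16 shRNA than with P16. The P16 shRNA libraries held 9.07, 5.02 and 5.58 CPM (172, 91 and 122 reads) and the P16 libraries 219, 326 and 139 CPM (4212, 7136 and 2498 reads). The groups were separated by more than an order of magnitude, and the 6 control libraries lay between them, at 31.9 to 79.8 CPM. The fitted log2 fold change of P16 shRNA against P16 was -5.13 (SE 0.42, edgeR adjusted p = 0.0132), and between the vectors alone it was 0.00 (edgeR unadjusted p = 0.994). Reads from the P16Ink4a transcript, from Arf and from the transduced P16 sequence were counted together under this gene. The start sites of both transcripts are shown because Cdkn2a is the gene that defines the comparison and is itself an E2F target in textbook accounts. The windows hold 250 bases before and 50 bases after the start in RefSeq GRCm38.p6, minus strand, with E2F words in capitals.
Cdkn2a, upstream start (Arf), chr4:89294570-89294869: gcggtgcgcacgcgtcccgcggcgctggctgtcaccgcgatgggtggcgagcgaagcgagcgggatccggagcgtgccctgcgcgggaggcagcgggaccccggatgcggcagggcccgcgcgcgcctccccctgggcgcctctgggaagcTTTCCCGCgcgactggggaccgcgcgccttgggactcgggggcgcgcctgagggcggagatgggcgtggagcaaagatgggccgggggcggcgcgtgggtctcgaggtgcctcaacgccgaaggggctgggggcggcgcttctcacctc
Cdkn2a, downstream start (P16Ink4a), chr4:89282143-89282442: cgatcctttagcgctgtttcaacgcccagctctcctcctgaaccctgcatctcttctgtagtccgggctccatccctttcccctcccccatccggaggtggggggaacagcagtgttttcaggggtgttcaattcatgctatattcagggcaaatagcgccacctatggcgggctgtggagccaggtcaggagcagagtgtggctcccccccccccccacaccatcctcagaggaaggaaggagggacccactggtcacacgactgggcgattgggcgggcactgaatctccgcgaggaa
The words searched on both strands were TTTCCCGC, TTTGGCGC, TTTCGCGC and TTTGCCGC. The upstream window held 1 of them, with its first base at position -99 from the start, and the downstream window held 0. Of 27025 genes with a RefSeq promoter, 2.6% had such a word.

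Of 14632 genes with enough counts to be tested, 93 differed between P16 shRNA and P16 at an adjusted p under 0.05 (edgeR). Only 11 were higher with P16 shRNA (0.0752% of the genes tested) and 82 were lower (0.56%), and the 3 libraries of one group did not overlap with those of the other in any of the 93. Across all genes, 13.8% were separated in this way with P16 shRNA higher and 13.8% with P16 shRNA lower. At an unadjusted p under 0.05, 1235 genes were higher (8.44%) and 1730 lower (11.8%). Same-numbered Cd31+ libraries deviated together across constructs, and with the replicate number as a block over the 12 Cd31+ libraries 857 genes were higher (5.56%) and 1369 lower (8.87%) at an adjusted p under 0.05. Of the 93 genes, 92 passed in that fit as well, the exception being Gas6, a ligand of TAM receptor kinases (adjusted p = 0.0579). The adjusted count rested on all 6 libraries, since it was 0 without any one of the P16 shRNA libraries, 11 and 12 without P16 replicate 2 or 3, and 6 without P16 replicate 5, while the unadjusted count stayed between 2020 and 3132. Without P16 replicate 5, all 93 genes kept their direction and an unadjusted p under 0.05.

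The vectors alone differed little at the genes called. Between nc shRNA and empty vector, 458 genes (3.16% of 14473) had an unadjusted p under 0.05 and 0 an adjusted p under 0.05 with edgeR, while DESeq2's Wald test called 18. With the replicate block in edgeR, the adjusted count was 444 on the 6 control libraries and 20 on the 12 libraries. Of the 93 genes, 5 had an unadjusted p under 0.05 in the vector comparison without the block (edgeR), namely Cavin1, Ccn4, Ppp1r2, Def8 and Rps27a. How many of the 93 passed in the blocked vector fits is not given here. The median absolute log2 difference of the 93 was 1.12 between P16 shRNA and P16, and 0.115 between the vectors for the 92 with a value. For Rps27a, a ribosomal protein fused to ubiquitin, the vector difference was nearly as large (0.96) as the difference between the constructs (1.12). Rps27a has processed copies in the genome, so its counts are uncertain. When the vector difference was subtracted, all 93 kept their sign, 29 kept an adjusted p under 0.05 and 33 genes in all passed (0.214% of 15426). With the replicate block the subtracted comparison gave 842 genes (5.46%), among them 81 of the 93.

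**Figure D1:**
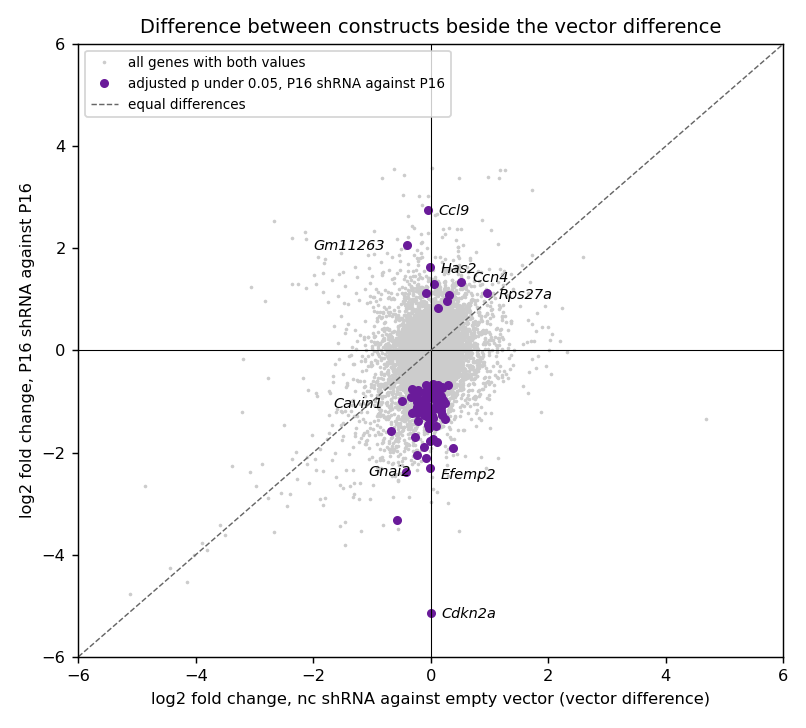
Each point is a gene, with the log2 fold change of nc shRNA against empty vector on the x axis and that of P16 shRNA against P16 on the y axis. The called genes (purple, 92 of the 93, since Ccl20 has no value for the vectors) lie close to x = 0, and Rps27a is the one nearest to the dashed line of equal differences.

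The called genes were set apart mostly by the P16 shRNA libraries. In 79 of the 93, all 3 P16 shRNA libraries lay outside the range of the 6 nc shRNA and empty vector libraries, against 14.2% of all genes tested. In 16 of the 93, all 3 P16 libraries lay outside that range, against 6.08% of all genes. Both groups lay outside it in 11 genes, Cdkn2a, Adam10, Hars and Stk17b among them, and neither did in 9. These counts describe genes that were chosen for their separation.

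The gene with the smallest p was Gnai2, the alpha subunit of an inhibitory G protein. It stood at 148, 161 and 170 CPM with P16 shRNA and at 706, 644 and 681 CPM with P16, while the controls held 487 to 653 CPM. All P16 shRNA libraries lay below the lowest control, and the P16 libraries lay at the upper end of the control range or above it. The fold change was 4.28 (log2 fold change -2.10, SE 0.13, edgeR adjusted p = 0.00883). Hdgf, a heparin-binding growth factor, had 68.3, 79.8 and 76.9 CPM with P16 shRNA and 325, 272 and 318 CPM with P16 (log2 fold change -2.04, SE 0.14, edgeR adjusted p = 0.00883). Its controls held 202 to 322 CPM, a range that overlapped with P16 and not with P16 shRNA. Dpysl2, a protein that binds microtubules, was 14.4 ± 0.436 CPM (SD, n = 3) with P16 shRNA and 53.1 ± 8.35 CPM with P16, with controls at 39.1 to 51.2 CPM.

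Efemp2 (fibulin-4), which is needed for elastic fibres, had 61.2, 74.8 and 69.0 CPM with P16 shRNA and 396, 343 and 263 CPM with P16 (log2 fold change -2.30, SE 0.19, edgeR adjusted p = 0.0118). Its 6 control libraries held 249 to 277 CPM, so that 2 of the 3 P16 libraries lay above them and all P16 shRNA libraries below. Sulf2, an enzyme that removes sulfate groups from heparan sulfate outside the cell, was 73.5 ± 9.95 CPM (SD, n = 3) with P16 shRNA and 252 ± 23 CPM with P16. Adam10, the protease that cleaves Notch receptors and cadherins at the membrane, had 126, 129 and 121 CPM with P16 shRNA and 306, 304 and 328 CPM with P16. The 6 controls of Adam10 held 330 to 477 CPM, above both groups, so P16 lay below the controls and P16 shRNA lower still. Its log2 fold change was -1.34 (SE 0.11, edgeR adjusted p = 0.0118).

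**Figure D2:**
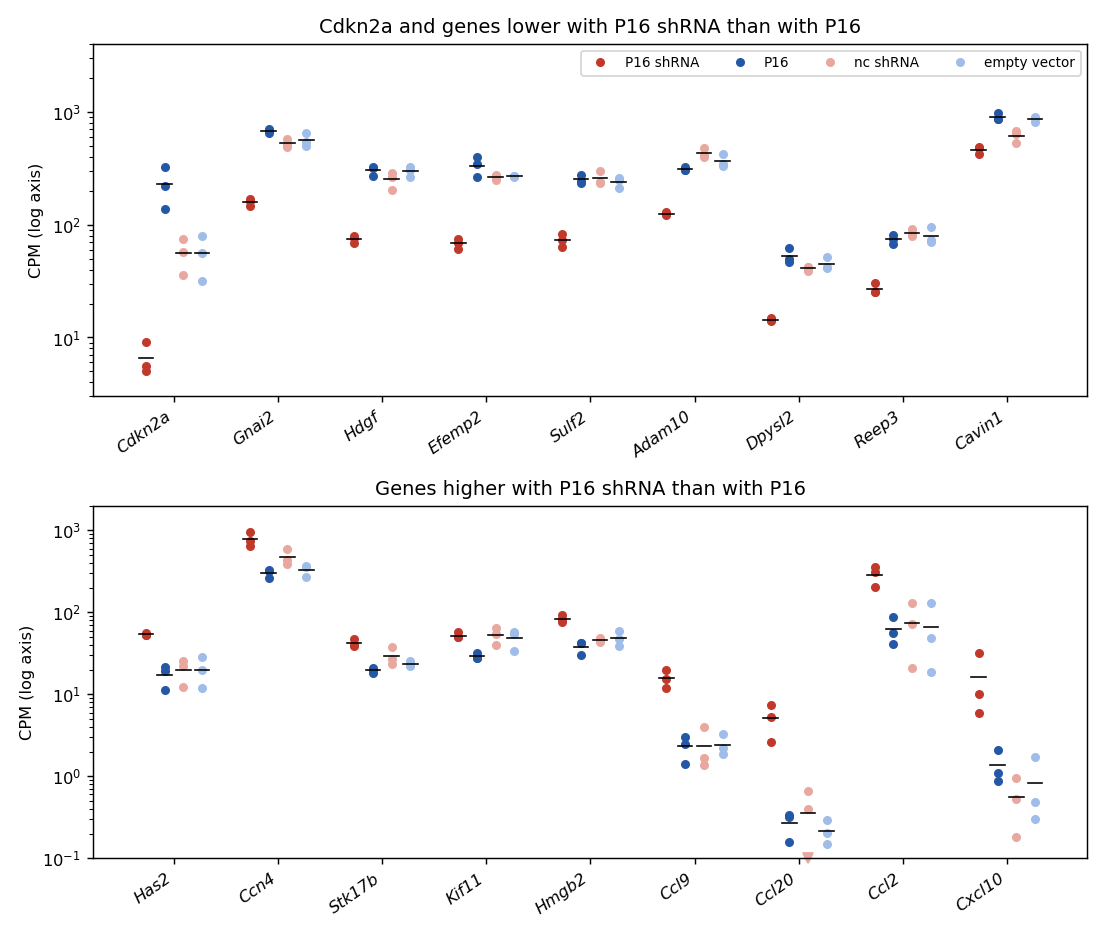
CPM on a log axis for 9 genes lower and 9 genes higher with P16 shRNA, with 1 point per library, 3 per group, and a bar at the group mean. The triangle at the lower edge is an nc shRNA library with 0 Ccl20 reads. The P16 shRNA points are apart from all others in most of the lower genes, and the P16 points of Cdkn2a, Adam10, Stk17b and Kif11 lie outside the control range.

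Genes of G protein signalling and vesicle traffic were mostly lower, with a negative log2 fold change in 22 of the 28 tested. The list was written by hand with earlier results of these data known, so its shares are not independent of them. At an unadjusted p under 0.05 (edgeR), 15 (53.6%) were lower and 0 higher, against 11.8% and 8.44% of all genes. The median log2 fold change was -0.33, beside -0.02 over all genes tested. The summed level of the list was 4480 to 4795 CPM with P16 shRNA and 6657 to 7060 CPM with P16, without overlap. Gnai2, Reep3, Cavin1 and Ehd2 passed the adjusted threshold, and 10 (35.7%) were lower at it with the replicate block, against 8.87% of all genes. Reep3, which shapes the endoplasmic reticulum, was 26.9 ± 2.87 CPM (SD, n = 3) with P16 shRNA and 74.1 ± 7.14 CPM with P16. Cavin1, a coat protein of caveolae, the small membrane pits of endothelial cells, had 475, 486 and 422 CPM with P16 shRNA and 974, 872 and 870 CPM with P16. Its nc shRNA libraries were lower than its empty vector libraries (log2 fold change -0.49, unadjusted p = 0.00775, edgeR), and after that difference was subtracted -0.48 remained (adjusted p = 0.354). Ehd2, an ATPase at the neck of caveolae, was 273 ± 43.2 CPM (SD, n = 3) with P16 shRNA and 596 ± 58.5 CPM with P16 (log2 fold change -1.14, edgeR adjusted p = 0.0483). Cav1, the membrane protein that forms them, had a log2 fold change of -1.24 (edgeR adjusted p = 0.0546, and 0.000241 with the replicate block).

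Few genes were higher with P16 shRNA at the adjusted threshold, and they included a hyaluronan synthase, a matricellular protein and 2 chemokines. Has2, which makes hyaluronan, had 56.6, 52.8 and 53.1 CPM with P16 shRNA and 11.4, 19.1 and 21.6 CPM with P16 (log2 fold change 1.63, SE 0.23, edgeR adjusted p = 0.0483). The controls of Has2 held 11.9 to 28.2 CPM and overlapped with the P16 libraries only. Ccn4 (WISP1), a secreted matricellular protein of the Wnt pathway, had 970, 738 and 641 CPM with P16 shRNA and 331, 321 and 264 CPM with P16 (log2 fold change 1.34, SE 0.19, edgeR adjusted p = 0.0483). It was also higher with nc shRNA than with empty vector (log2 fold change 0.52, unadjusted p = 0.0351), and its difference after subtraction was 0.85 (adjusted p = 0.325). The apoptosis-related kinase Stk17b (log2 fold change 1.09), Rnf150 (0.96), the chromatin protein Hmgb2 (1.12), Kif11 (0.82), the pseudogene Gm11263 (2.07) and the long non-coding RNA Gm47547 (1.30) made up the rest, beside Rps27a and the chemokines described further on.

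Genes of mitosis were higher with P16 shRNA than with P16 almost throughout. Of 77 tested, 75 had a positive log2 fold change, 59 (76.6%) passed an unadjusted p under 0.05 and were higher, and 0 passed and were lower, against 8.44% and 11.8% of all genes. In 62 of them (80.5%) every P16 shRNA library was above every P16 library, against 13.8% of all genes. The median log2 fold change was 0.52, and between the vectors the same list had a median of 0.00. At an adjusted p under 0.05 only Kif11 passed with the 6 libraries, and 34 (44.2%) were higher with the replicate block, against 5.56% of all genes. Without P16 replicate 5, 50 of the 77 were higher at an unadjusted p under 0.05. The mean log2 CPM of the list was 4.82, 5.10 and 5.04 in the P16 shRNA libraries and 4.42, 4.53 and 4.42 in the P16 libraries, and the controls, at 4.58 to 4.94, overlapped with P16 shRNA only.

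Kif11, the kinesin that pushes spindle poles apart, had 49.5, 57.2 and 49.6 CPM with P16 shRNA and 27.6, 31.9 and 28.0 CPM with P16, with controls at 33.9 to 63.8 CPM. The P16 libraries lay below all controls, and the P16 shRNA libraries inside their range (log2 fold change 0.82, SE 0.12, edgeR adjusted p = 0.0496). Cep55, which acts in the final cut between daughter cells, had 25.6, 24.9 and 26.9 CPM with P16 shRNA and 13.0, 15.3 and 15.3 CPM with P16 (edgeR adjusted p = 0.0504, and 0.00879 with the replicate block). Mki67, the proliferation antigen Ki-67, had 117, 181 and 129 CPM with P16 shRNA and 78.5, 85.2 and 88.3 CPM with P16. The groups did not overlap, and the log2 fold change was 0.75 (SE 0.18, edgeR adjusted p = 0.0967, and 0.0352 with the replicate block). Cyclin B1 (Ccnb1) was 59.9 ± 2.78 CPM (SD, n = 3) with P16 shRNA and 39.2 ± 1.04 CPM with P16, and topoisomerase Top2a was 197 ± 34.9 against 121 ± 11.1 CPM. Mastl, the Greatwall kinase that keeps a phosphatase off during mitosis, was 21.6 ± 2.75 CPM (SD, n = 3) against 10.8 ± 1.63 CPM (log2 fold change 0.98, edgeR adjusted p = 0.0625, and 0.0124 with the replicate block).

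Genes of S phase, the time of DNA replication, differed in the same direction and by less. Of 46 tested, 45 had a positive log2 fold change, and the median was 0.42. At an unadjusted p under 0.05, 23 (50%) were higher and 0 lower, against 8.44% and 11.8% of all genes. None passed the adjusted threshold with the 6 libraries, and 13 (28.3%) were higher with the replicate block, against 5.56% of all genes. The mean log2 CPM of the list was 4.85 ± 0.114 (SD, n = 3) with P16 shRNA and 4.42 ± 0.112 with P16. The helicase subunit Mcm6 had 102, 105 and 117 CPM with P16 shRNA and 70.8, 83.8 and 57.0 CPM with P16, a log2 fold change of 0.60 (SE 0.16, edgeR adjusted p = 0.113, and 0.0586 with the replicate block). Mcm4 (log2 fold change 0.56), Mcm7 (0.59), Dbf4, which activates the kinase that starts replication origins (0.49), and Uhrf1, which maintains DNA methylation (0.61), were separated between the groups as well.

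**Figure D3:**
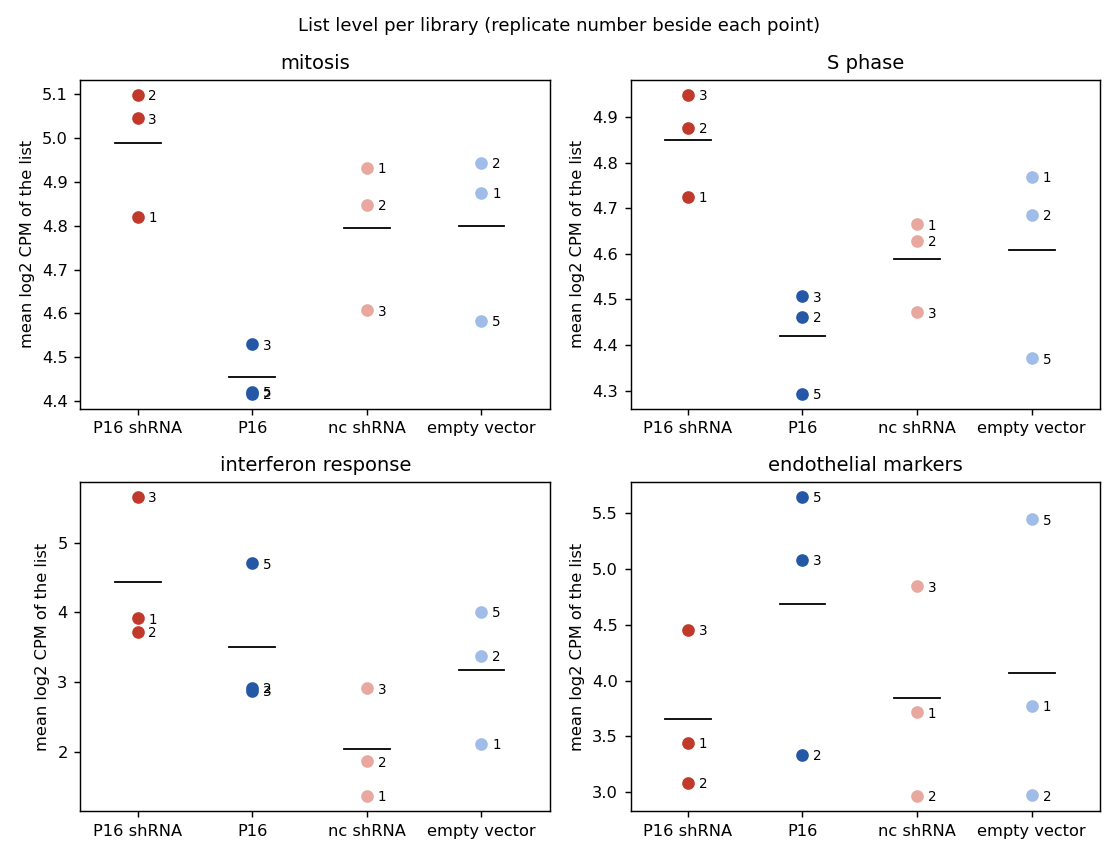
Mean log2 CPM of 4 gene lists in each of the 12 Cd31+ libraries, with the replicate number beside each point and a bar at the group mean. P16 shRNA lies above P16 without overlap for mitosis and S phase, while for interferon response and endothelial markers the groups overlap and libraries numbered 3 or 5 are the highest.

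The promoters of Kif11, Mki67 and Mcm6 are shown because they carry, in capitals, the short motifs textbooks tie to the retinoblastoma family. These are the cell cycle homology region for mitotic genes (TTTGAA or TTCGAA, searched on both strands, so that TTTGAA can appear as TTCAAA) and the E2F words given with Cdkn2a for replication genes. All windows are from RefSeq GRCm38.p6 and written 5′ to 3′ along the gene.
Kif11, chr19:37376132-37376431, plus strand: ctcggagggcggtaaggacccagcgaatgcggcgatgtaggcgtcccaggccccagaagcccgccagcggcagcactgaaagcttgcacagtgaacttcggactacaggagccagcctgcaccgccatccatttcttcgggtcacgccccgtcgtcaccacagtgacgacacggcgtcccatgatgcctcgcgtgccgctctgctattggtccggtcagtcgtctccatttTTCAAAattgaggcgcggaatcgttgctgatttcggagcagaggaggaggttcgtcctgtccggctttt
Mki67, chr7:135716330-135716629, minus strand: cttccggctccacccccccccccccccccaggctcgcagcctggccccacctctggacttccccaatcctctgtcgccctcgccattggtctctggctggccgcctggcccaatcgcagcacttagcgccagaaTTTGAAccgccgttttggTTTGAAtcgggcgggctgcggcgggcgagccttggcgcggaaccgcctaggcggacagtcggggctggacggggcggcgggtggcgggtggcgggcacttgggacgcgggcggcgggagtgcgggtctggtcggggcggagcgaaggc
Mcm6, chr1:128359656-128359955, minus strand: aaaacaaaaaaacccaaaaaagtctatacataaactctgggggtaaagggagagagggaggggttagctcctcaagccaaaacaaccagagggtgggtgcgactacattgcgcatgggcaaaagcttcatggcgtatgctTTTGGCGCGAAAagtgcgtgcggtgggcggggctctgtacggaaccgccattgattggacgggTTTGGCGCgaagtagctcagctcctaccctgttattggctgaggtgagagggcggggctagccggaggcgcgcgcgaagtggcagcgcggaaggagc
In Kif11 the motif began at position -19 from the start, in Mki67 at -116 and -98, and in Mcm6 the E2F words began at -110, -106 and -47, of which the first and second overlap. The cell cycle homology region was present in 47 of 65 mitosis genes with a promoter entry (72.3%), in 8 of 38 S phase genes (21.1%) and in 21.7% of all 27025 genes. E2F words were present in 15 of 38 S phase genes (39.5%), in 7 of 65 mitosis genes (10.8%) and in 2.6% of all genes. The median log2 fold change was 0.58 for the 47 mitosis genes with the motif and 0.49 for the 18 without, and 0.58 for the 15 S phase genes with an E2F word and 0.39 for the 23 without. These are descriptions of letters in a window, and no difference between the subsets was tested.

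Of 31 CDK inhibitors, cyclins, RB and E2F genes tested, 6 (19.4%) were higher at an unadjusted p under 0.05 (edgeR), against 8.44% of all genes, and 3 (9.68%) were lower, against 11.8% of all genes, with a median of 0.15. The 3 lower genes were Ccnd1, Ccnd2 and Rbl2. Cyclin D1 (Ccnd1), which activates CDK4 and CDK6, had 96.6, 189 and 197 CPM with P16 shRNA and 449, 612 and 432 CPM with P16 (log2 fold change -1.64, SE 0.30, edgeR adjusted p = 0.0663, and 5.98e-05 with the replicate block). The groups did not overlap, and the controls, at 308 to 592 CPM, overlapped with P16 only. Cyclin D2 (Ccnd2) had 639, 947 and 861 CPM against 1032, 1588 and 1590 CPM (log2 fold change -0.79, unadjusted p = 0.0111, edgeR). Rbl2, the RB relative p130 of resting cells, was 16.1 ± 0.408 CPM (SD, n = 3) with P16 shRNA and 30.7 ± 6.11 CPM with P16 (log2 fold change -0.95, edgeR adjusted p = 0.0609, and 0.000736 with the replicate block). The E2F partner Tfdp1 was higher, at 151 ± 3.57 against 113 ± 5.59 CPM (log2 fold change 0.40, unadjusted p = 0.00471, edgeR). Cdk4 had a log2 fold change of 0.09 (SE 0.17, edgeR adjusted p = 0.808) and the CDK inhibitor Cdkn1a (p21) one of -0.36 (SE 0.20, adjusted p = 0.348), which was -0.24 without P16 replicate 5.

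The chemokines Ccl9 and Ccl20 were higher with P16 shRNA at the adjusted threshold. Of 26 inflammatory mediators tested, 8 (30.8%) were higher and 4 (15.4%) lower at an unadjusted p under 0.05 (edgeR), against 8.44% and 11.8% of all genes, with a median of 0.50. Ccl9, a chemokine that attracts myeloid cells, had 15.5, 19.9 and 11.8 CPM with P16 shRNA and 3.01, 1.42 and 2.50 CPM with P16 (log2 fold change 2.75, SE 0.34, edgeR adjusted p = 0.0375). Ccl20, which attracts cells with the receptor CCR6, had 101, 48 and 163 reads with P16 shRNA and 3, 7 and 6 reads with P16. Both groups were separated, but the P16 libraries of Ccl20 stood near the floor of 3 counts, so the log2 fold change of 4.21 (edgeR adjusted p = 0.0378) is imprecise. Ccl2, which attracts monocytes, had 358, 202 and 308 CPM against 41.5, 88.7 and 55.6 CPM, without overlap (log2 fold change 2.21, SE 0.33, edgeR adjusted p = 0.0512, and 0.0179 with the replicate block). Interleukin 6 (Il6) had 39.6, 16.8 and 32.3 CPM against 6.75, 9.74 and 11 CPM (log2 fold change 1.68, edgeR adjusted p = 0.0778, and 0.000173 with the replicate block). The inflammatory caspase Casp4 was 17.5 ± 3.93 CPM (SD, n = 3) against 9.53 ± 1.39 CPM (log2 fold change 0.86, unadjusted p = 0.00441, edgeR). The 4 lower mediators at an unadjusted p under 0.05 were Icam1, an adhesion receptor for leukocytes on endothelium (log2 fold change -2.06), the endothelial selectin Sele (-1.54), Il15 (-1.11) and the chemokine Cxcl16 (-0.61). Without P16 replicate 5 only Icam1 of these stayed under that threshold (-1.62, edgeR unadjusted p = 0.0115), with Sele at -1.23, Il15 at -0.77 and Cxcl16 at -0.30. Icam1 had 18.8, 32.6 and 49.1 CPM with P16 shRNA and 77.5, 129 and 210 CPM with P16, in the order of the summed endothelial markers in both groups, and their part in this difference was not tested.

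Cxcl10, an interferon-induced chemokine for activated T cells, had 10.1, 5.96 and 32.2 CPM with P16 shRNA and 0.883, 1.10 and 2.11 CPM with P16. Every P16 shRNA library lay above every P16 library, and replicate 3 was the highest. The log2 fold change was 3.55 (SE 0.75, edgeR adjusted p = 0.0834), and with the replicate block 4.04 (adjusted p = 7.71e-05). Its promoter is shown because it carries the interferon-stimulated response element, GAAANNGAAA (in capitals, first base at position -213, searched on both strands).
Cxcl10, chr5:92348840-92349139, minus strand, RefSeq GRCm38.p6: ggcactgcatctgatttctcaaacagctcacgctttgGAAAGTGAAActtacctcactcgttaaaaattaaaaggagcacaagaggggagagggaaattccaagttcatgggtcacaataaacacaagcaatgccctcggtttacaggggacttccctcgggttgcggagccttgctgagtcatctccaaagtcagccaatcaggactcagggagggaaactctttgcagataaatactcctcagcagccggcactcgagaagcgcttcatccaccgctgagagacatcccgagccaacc
This element was present in 31 of 53 interferon response genes with a promoter entry (58.5%) and in 3.99% of all 27025 genes.

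Interferon response genes had a high median difference and a wide spread between libraries. The median log2 fold change of the 64 tested was 0.99, and 56 were positive, but 4 (6.25%) were higher and 2 (3.12%) lower at an unadjusted p under 0.05 (edgeR), smaller shares than among all genes. The mean log2 CPM of the list was 3.91, 3.72 and 5.65 with P16 shRNA and 2.92, 2.87 and 4.71 with P16, so that P16 shRNA replicate 3 and P16 replicate 5 were the highest of their groups and the groups overlapped. Taking the replicate number into account gave a median of 1.84, with 24 genes (37.5%) higher and 2 (3.12%) lower at an adjusted p under 0.05, against 5.56% and 8.87% of all genes. Without P16 replicate 5 the median was 2.08, and 32 were higher at an unadjusted p under 0.05, whereas without P16 shRNA replicate 3 the median was 0.05. Between the vectors the list had the opposite sign, a median of -1.05 for nc shRNA against empty vector. There 13 of its genes were lower and 0 higher at an unadjusted p under 0.05 (edgeR), against 251 lower and 207 higher of 14473 genes in all. The mean log2 CPM was 2.05 with nc shRNA and 3.17 with empty vector. After subtraction of this vector difference the median was 2.16, a value that includes the low nc shRNA level.

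Within the interferon list the members did not move alike. Oas1g, of the family that senses double-stranded RNA, had 2.53, 1.44 and 15.4 CPM with P16 shRNA and 0.104, 0.0457 and 0.944 CPM with P16 (log2 fold change 4.16, unadjusted p = 0.0208, edgeR), of which 2 P16 libraries lay under the floor, and its log2 fold change was 6.35 without P16 replicate 5. Lgals3bp, a secreted glycoprotein, had 181, 219 and 515 CPM against 105, 104 and 200 CPM (log2 fold change 1.15, edgeR adjusted p = 0.248, and 0.0347 with the replicate block). The restriction factors Ifitm1 (log2 fold change -2.25) and Ifitm2 (-0.77) were the 2 lower members, and for Ifitm2 the libraries held 66.6, 77.6 and 75.5 CPM with P16 shRNA and 148, 101 and 120 CPM with P16. Oas and Ifitm genes have close relatives between which reads may be split. The signal transducer Stat2 had a log2 fold change of 0.57 (SE 0.58, edgeR adjusted p = 0.623), which was 1.34 without P16 replicate 5 (unadjusted p = 0.0279) and 1.30 with the replicate block (adjusted p = 0.0942), and 0.06 without P16 shRNA replicate 3. Among 15 interferon ligands, receptors and their kinases tested, the median was -0.06, and the kinase Jak1 was lower at 191 ± 16.4 CPM (SD, n = 3) against 254 ± 10.4 CPM (unadjusted p = 0.00845, edgeR).

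Sensors of nucleic acids and antigen presentation genes had positive medians too. Of 21 sensors tested, 3 (14.3%) were higher and 0 lower at an unadjusted p under 0.05, against 8.44% and 11.8% of all genes, with a median of 0.37. With the replicate block 5 (22.7%) were higher at an adjusted p under 0.05, against 5.56% of all genes. The DNA sensor Cgas had 6.65, 8.89 and 10.7 CPM with P16 shRNA and 4.00, 4.98 and 6.22 CPM with P16 (log2 fold change 0.77, unadjusted p = 0.0219, edgeR). The groups of Cgas did not overlap. Of 22 antigen presentation genes, 2 (9.09%) were higher at an unadjusted p under 0.05, a share near the 8.44% of all genes, and 0 were lower. Their median was 0.37, and 0.03 without P16 shRNA replicate 3. With the replicate block 7 (31.8%) were higher at an adjusted p under 0.05, against 5.56% of all genes. The class I molecule H2-K1 had 109, 122 and 303 CPM against 51.4, 55.8 and 55.8 CPM (log2 fold change 1.70, SE 0.41, edgeR adjusted p = 0.106, and 0.000287 with the replicate block). H2-D1 had 159, 177 and 374 CPM against 109, 113 and 81.1 CPM. In both genes P16 shRNA replicate 3 was the highest library, and class I genes are alike enough in sequence that reads may be split between them.

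**Figure D4:**
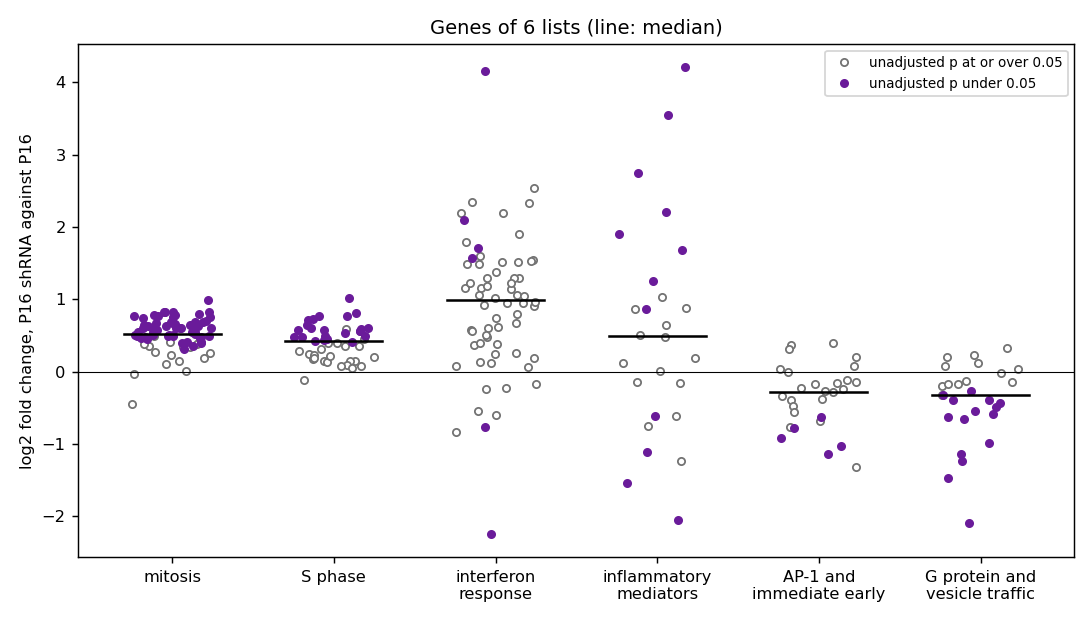
Log2 fold change of P16 shRNA against P16 for every tested gene of 6 lists, filled where the unadjusted p was under 0.05, with a bar at the median. Nearly all mitosis and S phase genes lie a little above 0, interferon response and inflammatory genes scatter widely on both sides, and no gene of the last 2 lists that passed lies above 0.

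Of 28 immediate early genes tested, 5 (17.9%) were lower and 0 higher at an unadjusted p under 0.05, against 11.8% and 8.44% of all genes, with a median of -0.28. Leaving out P16 replicate 5 gave 11 lower. With the replicate block 13 (46.4%) were lower and 0 higher at an adjusted p under 0.05, against 8.87% and 5.56% of all genes. Maff, a small Maf protein, was 27.4 ± 2.01 CPM (SD, n = 3) with P16 shRNA and 55.6 ± 3.15 CPM with P16 (log2 fold change -1.03, SE 0.11, edgeR adjusted p = 0.0285). The related Mafk had 67.4, 67.2 and 78.2 CPM against 112, 114 and 101 CPM, without overlap (edgeR adjusted p = 0.067, and 0.00244 with the replicate block). Fos, a subunit of AP-1, had 16.2, 28.4 and 24.7 CPM with P16 shRNA and 65.0, 92.9 and 14.4 CPM with P16. P16 replicate 5 was the lowest of all 6 libraries for Fos, and the log2 fold change was -1.33 (edgeR adjusted p = 0.305) with it, -1.77 without it (unadjusted p = 0.000777) and -1.40 with the replicate block (adjusted p = 0.000715). Dusp1, a phosphatase that switches off MAP kinases, was separated at 73.0, 56.0 and 97.4 CPM against 155, 231 and 109 CPM (edgeR adjusted p = 0.123, and 2.04e-05 with the replicate block).

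Of 35 secreted factors and markers of senescence tested, 9 (25.7%) were lower at an unadjusted p under 0.05 (edgeR), against 11.8% of all genes, and 3 (8.57%) were higher, a share near the 8.44% of all genes, with a median of -0.09. Timp2, an inhibitor of matrix metalloproteases, had 1496, 1592 and 1688 CPM with P16 shRNA and 3064, 3730 and 2829 CPM with P16 (log2 fold change -1.02, SE 0.17, edgeR adjusted p = 0.0591, and 0.000208 with the replicate block). The 6 controls of Timp2 held 1927 to 2712 CPM and lay between the groups without touching either. Anapc2, a subunit of the anaphase-promoting complex, had 101, 95.1 and 94.7 CPM against 156, 160 and 140 CPM (log2 fold change -0.67, edgeR adjusted p = 0.0556, and 0.000952 with the replicate block). Hmgb2, which is lost from senescent cells, had 83.1, 76.1 and 92.3 CPM with P16 shRNA and 41.7, 42.3 and 30.5 CPM with P16. All P16 shRNA libraries of Hmgb2 lay above the controls, at 38.5 to 60.1 CPM (log2 fold change 1.12, SE 0.16, edgeR adjusted p = 0.0496). Vegfa had a log2 fold change of -0.09 (SE 0.19, edgeR adjusted p = 0.834), and Mmp14 one of 0.46 (adjusted p = 0.363).

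Of 29 p53 targets tested, 1 (3.45%) was higher and 6 (20.7%) lower at an unadjusted p under 0.05, against 8.44% and 11.8% of all genes. The median was -0.19, and -0.08 without P16 replicate 5. The polo-like kinase Plk2 was the higher one, at 536, 393 and 509 CPM against 259, 276 and 236 CPM (log2 fold change 0.88, edgeR adjusted p = 0.0632, and 0.00175 with the replicate block). The death receptor Tnfrsf10b, at 46.9 ± 2.97 against 77.5 ± 18.1 CPM (SD, n = 3), and Dcxr, a carbonyl reductase, at 20.4 ± 5.36 against 44.4 ± 5.23 CPM, were lower.

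Of 28 genes of the oxidative stress response tested, 8 (28.6%) were lower and 3 (10.7%) higher at an unadjusted p under 0.05 (edgeR), against 11.8% and 8.44% of all genes, with a median of -0.38. Heme oxygenase Hmox1 had 114, 70.0 and 131 CPM with P16 shRNA and 203, 320 and 245 CPM with P16 (log2 fold change -1.30, edgeR adjusted p = 0.0787, and 0.000169 with the replicate block). Catalase (Cat), which breaks down hydrogen peroxide, had 59.1, 70.9 and 65.5 CPM against 89.1, 90.2 and 90.5 CPM, and Cyba, a membrane subunit of NADPH oxidases, had 55.7, 46.5 and 66.7 CPM against 79.9, 93.3 and 85.3 CPM. Neither gene overlapped between the groups. Thioredoxin reductase Txnrd1 was higher, at 377 ± 63.6 against 260 ± 23.4 CPM (log2 fold change 0.52, unadjusted p = 0.0144, edgeR).

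Endothelial markers had the lowest median of all lists, -1.27 over 24 tested, and this median shrank to -0.50 with the replicate block. At an unadjusted p under 0.05, 6 (25%) were lower and 0 higher (edgeR), against 11.8% and 8.44% of all genes. The summed level was 558.7 to 1053 CPM with P16 shRNA and 1048, 1804 and 2896 CPM with P16, the highest in P16 replicate 5. In the blocked fit, 8 (33.3%) were lower and 1 (4.17%) higher at an adjusted p under 0.05, against 8.87% and 5.56% of all genes. The median was -0.71 without P16 replicate 5, and the vectors alone had a median of -0.39. Fewer endothelial cells and less endothelial RNA per cell cannot be told apart in these bulk libraries. The cell surface protein Mcam (Cd146) had 31.6, 52.1 and 62.8 CPM with P16 shRNA and 145, 148 and 395 CPM with P16 (log2 fold change -2.24, SE 0.49, edgeR adjusted p = 0.0891, and -1.43 with adjusted p = 2.72e-05 in the blocked fit). Every P16 library exceeded every P16 shRNA library, as was also so for Eng, a co-receptor of TGF-β, at 61.5, 144 and 161 CPM against 282, 344 and 634 CPM. Pecam1, on which the cells were selected, had 60.5, 109 and 92.7 CPM against 143, 160 and 283 CPM (log2 fold change -1.17, unadjusted p = 0.00963, edgeR). Ehd3, a membrane-trafficking ATPase enriched in sinusoidal endothelium, was the 1 sinusoidal marker of 12 that was lower at an unadjusted p under 0.05, at 14.7, 13.8 and 15.1 CPM against 36.7, 40.8 and 93.6 CPM. That share, 8.33%, was below the 11.8% of all genes. Of the 12, 10 had a negative log2 fold change, and 2 (16.7%) were lower with the replicate block at an adjusted p under 0.05, against 8.87% of all genes.

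The 19 mesenchymal markers tested had a median of -0.13, with 1 (5.26%) higher and 3 (15.8%) lower at an unadjusted p under 0.05, against 8.44% and 11.8% of all genes. Their summed level was 55350 to 76220 CPM with P16 shRNA and 45010 to 53170 CPM with P16, without overlap. With the replicate block 4 (21.1%) of them were higher and 3 (15.8%) lower at an adjusted p under 0.05, against 5.56% and 8.87% of all genes. Thy1, a fibroblast surface protein, had 1.69, 0.994 and 8.55 CPM against 4.11, 43.1 and 81.3 CPM. The 11 macrophage markers tested had a median of -0.71, and of 0.07 without P16 replicate 5, with a summed level of 38.8 to 124.9 CPM against 69.7 to 200.7 CPM. In the blocked fit 4 (36.4%) of them were lower at an adjusted p under 0.05, against 8.87% of all genes. Clec4f, which marks Kupffer cells, was at or below 0.0914 CPM in all 6 libraries. The 7 cholangiocyte markers tested had a median of -1.01, with 2 (28.6%) higher and 2 (28.6%) lower at an unadjusted p under 0.05. Among them Spp1, made by many cells, ranged from 176 to 950 CPM with P16 shRNA and from 30.3 to 121 CPM with P16, without overlap. The 950 CPM came from replicate 1, which P16 lacks, and nc shRNA and empty vector replicates 1 held 784 and 571 CPM. Krt19 was lower, at 0.580, 7.67 and 5.03 CPM against 14.0, 12.3 and 12.7 CPM. The part of these cells in the differences above was not tested.

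Collagen and basement membrane genes had a median of -0.06 over 41 tested, with 2 higher and 4 (9.76%) lower at an unadjusted p under 0.05, a share below that of all genes. The lower ones included the basement membrane chains Col4a3 and Col4a4 (log2 fold changes -3.81 and -3.45), which stood at 127 and 101 CPM in P16 replicate 5 and at 13.3 to 18.5 CPM in the other P16 libraries. Without P16 replicate 5 these were -1.99 and -1.96, and with the replicate block -1.61 and -1.53. The fibrillar collagen Col5a2 had 9827, 7858 and 7927 CPM with P16 shRNA and 4346, 4712 and 3768 CPM with P16 (log2 fold change 0.98, SE 0.19, edgeR adjusted p = 0.0716, and 0.000543 with the replicate block). Its controls, at 3859 to 5213 CPM, overlapped with P16 only. Of 26 cell junction genes, 9 (34.6%) were lower and 1 (3.85%) higher at an unadjusted p under 0.05, against 11.8% and 8.44% of all genes. Their median of -0.42 shrank to -0.20 without P16 replicate 5, when 5 were lower, and to -0.03 with the replicate block. The adherens junction protein Ctnna1 had 356, 467 and 387 CPM against 652, 568 and 681 CPM, without overlap (unadjusted p = 0.00379, edgeR).

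Of 37 genes of angiogenesis signalling, 10 (27.0%) were lower and 2 (5.41%) higher at an unadjusted p under 0.05, against 11.8% and 8.44% of all genes, with a median of -0.23. Leaving out P16 replicate 5 gave 5 lower at that threshold, and the median was -0.09 with the replicate block. Smad6, Id1 and Hes1 were among the lower ones. Smad6, an inhibitor that BMP signals induce, had 64.1, 111 and 89.1 CPM with P16 shRNA and 262, 209 and 224 CPM with P16 (log2 fold change -1.41, SE 0.22, edgeR adjusted p = 0.0504, and 3.25e-05 with the replicate block). Id1, another BMP target, had 68.9, 86.4 and 72.7 CPM against 162, 136 and 121 CPM (log2 fold change -0.89, unadjusted p = 0.000709, edgeR), and Hes1, a Notch target, 33.8, 50.1 and 43.7 CPM against 105, 77.8 and 68.4 CPM (log2 fold change -0.99, unadjusted p = 0.00244). The groups were separated in all 3 genes.

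Cholesterol synthesis genes had a median of 0.40 over 25 tested, 20 of them positive, which was 0.11 without P16 shRNA replicate 1, 0.15 without P16 replicate 2 and 0.67 without P16 replicate 5. At an unadjusted p under 0.05, 3 (12%) were higher and 0 lower, against 8.44% and 11.8% of all genes. With the replicate block 10 (40.0%) were higher at an adjusted p under 0.05, against 5.56% of all genes. Lss, which closes the sterol rings, had 47.7, 28.0 and 36.0 CPM with P16 shRNA and 16.3, 20.7 and 27.0 CPM with P16, with no overlap.

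In 3 lists the shares of called genes were near those of all genes or below them. The unfolded protein response had 2 of 22 genes higher and 1 lower at an unadjusted p under 0.05 and a median of 0.07, with Atf4 at a log2 fold change of 0.21 (SE 0.18). The mitochondrial ribosome had 4 of 56 higher and 3 lower and a median of 0.04. The small RNA pathway, which processes hairpin RNAs, had 1 of 15 higher (Dgcr8, log2 fold change 0.36) and 1 lower (Ago1, -0.46, and -0.27 without P16 replicate 5), and a median of 0.14.

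**Figure D5:**
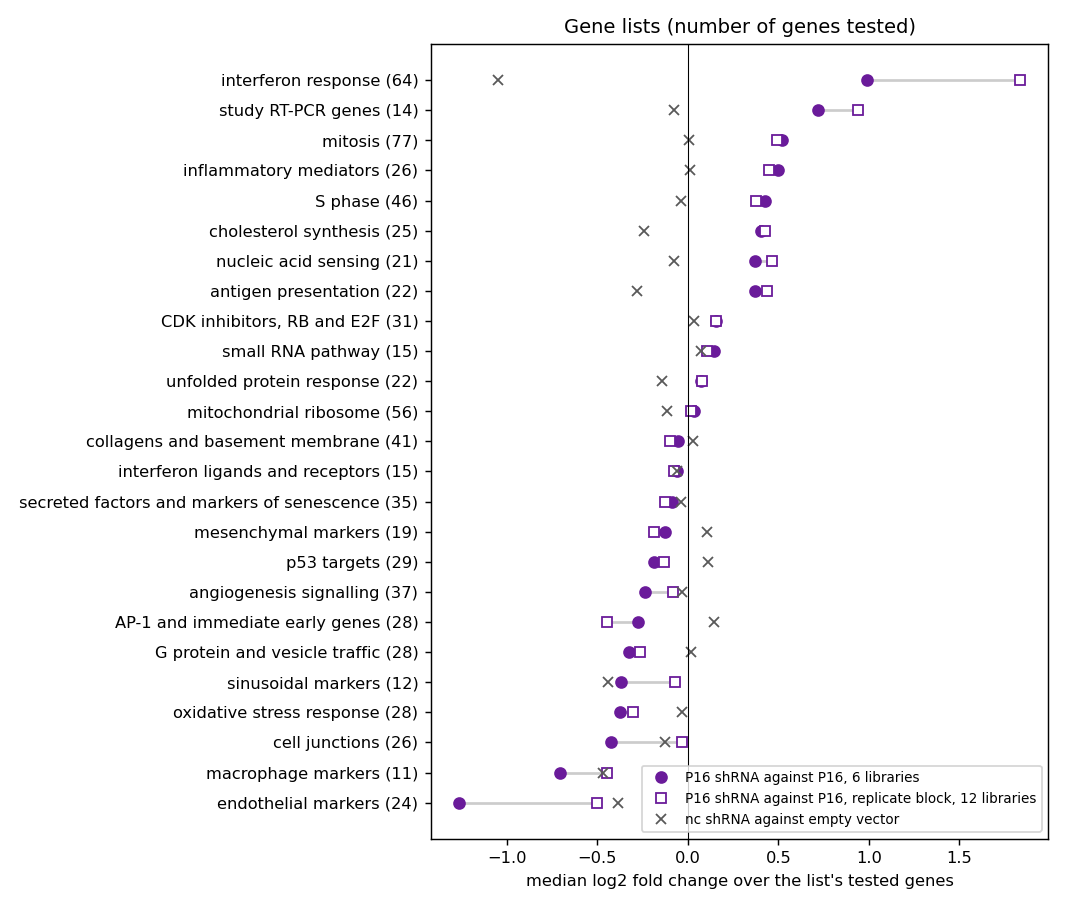
Median log2 fold change of each gene list with at least 10 genes tested, for P16 shRNA against P16 with the 6 libraries (filled circles), with the replicate block (squares), and for nc shRNA against empty vector (crosses). The mitosis and S phase medians stay above 0 in both fits with the vectors near 0, whereas the interferon response median lies opposite to that of the vectors and the endothelial median moves from -1.27 to -0.50.

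The genes that the study had measured by RT-PCR, chosen there on these samples, showed both directions. Of the 18 genes, 14 could be tested, with a median of 0.72, and 0.37 without P16 shRNA replicate 3. At an unadjusted p under 0.05 (edgeR), 7 (50%) were higher and 3 (21.4%) lower, against 8.44% and 11.8% of all genes. Because the genes were chosen on these samples, these shares are not independent of the data. The 7 higher ones were Mastl, Casp4, Ccl2, Ccl5, Ccl9, Cxcl10 and Il6, and the 3 lower ones Timp2, Mafk and Anapc2, with values given above apart from those of the T cell chemokine Ccl5. Ccl5 had 1.48, 1.60 and 5.35 CPM with P16 shRNA and 0.779, 0.366 and 1.11 CPM with P16 (log2 fold change 1.90, unadjusted p = 0.0239, edgeR). The remaining 4, Fos and Vegfa among them, did not pass.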

How the data were processed

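RNA sequencing of 6 Cd31+ libraries was analysed beside the 6 nc shRNA and empty vector libraries. The values are counts of reads per gene, whole numbers without normalization, as deposited by the authors for 56748 genes. Cleaning with fastp and the build mm9 are named in the submitters' processing notes. The aligner, the counter and whether counting used strand are not given in the sources used here. Gene coordinates in the count table did not match those of RefSeq GRCm38, so only RefSeq promoter coordinates are printed. The authors also deposited FPKM values and their own fold changes and p-values, which were not used.

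The main test was edgeR 4.0.16 (R 4.3.3) on the 6 libraries, with filterByExpr, TMM normalization, the robust quasi-likelihood test (two-sided) and Benjamini-Hochberg adjustment over all genes tested. CPM are TMM-normalized over the 12 Cd31+ libraries, and list levels are means of log2 CPM with a prior count of 2. The floor covers counting error only, whereas SE and p-values from edgeR include the estimated spread between libraries. The vector difference was fitted as nc shRNA against empty vector, and subtracted as a contrast over 12 libraries. Same-numbered libraries correlated after group means were removed (13 pairs, 0.384 to 0.677, against -0.464 to 0.402 for 41 pairs with different numbers). Between P16 shRNA and P16 the correlation was 0.437 for number 2 and 0.384 for number 3. The latter was the lowest of the 13 and below the highest pair with different numbers. The numbers, given in the labels, were taken to pair the samples. P16 shRNA and P16 share the numbers 2 and 3 only, and the controls connect the others. Only the main fit was tried on simulated counts, which had the same dispersion for every gene and no effect of the replicate number. The block and subtraction fits were not simulated. DESeq2 1.42.0 was an alternative.

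The comparison, the gene lists, which were written by hand, and the motifs were chosen with earlier results of these data known. Genes named are Cdkn2a, the 18 listed genes of the study's RT-PCR, and up to 10 higher and 10 lower genes of lowest p whose groups did not overlap. Also named are the 5 with the largest change at 10 CPM or more, and of each list the 4 most abundant and the 3 with the smallest p, narrowed by room. Some genes are not reported here. Gm11263, Gm47547, Gas6, Ppp1r2, Def8, Icam1, Sele, Il15, Cxcl16, Col4a3, Xist and the genes under other observations were chosen after their values were seen. The same holds for the cell type markers Cdh5, Kdr, Nos3, Sox17, Acta2, Tagln, Des, Krt19, Stab1, Stab2 and Clec4f. Symbols not found in the table were Rigi, Tmem173, Fcn3, Tf and Vamp7.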

Additional observations from a re-analysis of the deposited data

How the results depend on the processing

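The direction of Cdkn2a and of the other single genes described held under every alternative run, except Cdk4 (-0.0649 with the replicate block on the 6 libraries, and -0.0017 to 0.26 with single libraries left out) and Vegfa (-0.22 to 0.0573), whose adjusted p stayed above 0.05 in each of these fits. The number of genes called did not hold. At an adjusted p under 0.05 it was 93 with edgeR, 46 with DESeq2's size factors, 1447 with all genes of at least 1 count, 47 with genes of a mean of at least 10 counts, 1345 with DESeq2's Wald test, 522 with one fit over the 12 Cd31+ libraries, 1060 with the replicate block on the 6 libraries, 2226 with the block on the 12 libraries, 2150 with the block without the libraries numbered 5 (chosen after seeing the data), 33 after subtraction of the vector difference, and 0 to 12 with single libraries left out. At an unadjusted p under 0.05 it was 4531 and 4673 with those last 2 blocks and 1662 after subtraction. For nc shRNA against empty vector the adjusted count was 11 with all genes, 18 with the Wald test, 4 with one fit, and 444 and 20 with the replicate block on 6 and 12 libraries, and the unadjusted count 977, 1900 and 1600 with all genes and with the block on 6 and 12 libraries. The subtracted comparison gave 641 genes with all genes, 301 with the Wald test, 842 with the replicate block and 7 to 40 with single libraries left out, and unadjusted 2659 with all genes and 3294 with the block. The cause of these shifts was not tested. The log2 fold change of Cdkn2a was -5.43 to -4.77 with single libraries left out, and its adjusted p rose above 0.05 without P16 shRNA replicate 1 (0.118), 2 (0.0864) or 3 (0.126) or P16 replicate 2 (0.0543).

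Medians of lists moved by more than the replicate spread as follows. After subtraction of the vector difference, interferon response was 2.16, inflammatory mediators 0.25, cell junctions -0.18, oxidative stress response -0.20, unfolded protein response 0.21, small RNA pathway 0.014 and the RT-PCR genes 1.28. With the replicate block on 12 libraries, cell junctions were -0.0335, G protein and vesicle traffic -0.26 and the RT-PCR genes 0.94 (1.04 on the 6 libraries), and without the libraries numbered 5 these were -0.0266, -0.26 and 0.94, with p53 targets at -0.0707. With single libraries left out, the medians ranged from 0.0473 to 2.08 for interferon response, 0.34 to 0.72 for inflammatory mediators, -0.11 to 0.15 for collagens and basement membrane, -0.39 to -0.20 for cell junctions, -0.35 to -0.25 for G protein and vesicle traffic and 0.37 to 0.94 for the RT-PCR genes. The medians of mitosis (0.46 to 0.63) and S phase (0.37 to 0.50) kept their sign under all alternatives run. Differences below 3 counts per library, as in part of the P16 libraries for Oas1g, were not detectable at this depth.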

Other observations

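Genes of lysosomes and membrane turnover were among the 82 called lower with P16 shRNA, and were picked out after their values were seen, so no count over them is given as a result. Cathepsin A (Ctsa), a lysosomal protease, had 145, 156 and 169 CPM with P16 shRNA and 334, 307 and 283 CPM with P16, with controls at 230 to 292 CPM (log2 fold change -0.99, edgeR adjusted p = 0.0411). Lamp2, a membrane protein of lysosomes, had 240, 220 and 230 CPM against 426, 440 and 404 CPM, and its controls, at 433 to 593 CPM, reached higher than both groups. Acid ceramidase (Asah1) had 138, 133 and 138 CPM against 223, 238 and 215 CPM (log2 fold change -0.74, adjusted p = 0.0483), and Atp6v1d, a subunit of the proton pump that acidifies lysosomes, had 50.2, 43.7 and 51.8 CPM against 98.0, 85.0 and 91.1 CPM (log2 fold change -0.93, adjusted p = 0.0437). In all 4 genes the P16 shRNA libraries lay below every control library.

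Rab1a, a small GTPase of transport from the endoplasmic reticulum, and Nedd4, a ubiquitin ligase, showed the same order, at 138 ± 5.75 against 294 ± 23.4 CPM (SD, n = 3) and at 807 ± 89.1 against 1752 ± 201 CPM. Bcl2l1 (Bcl-xL), which protects from apoptosis, had 52.2, 53.7 and 69.9 CPM with P16 shRNA and 114, 136 and 144 CPM with P16, with controls at 90.4 to 138 CPM (log2 fold change -1.18, edgeR adjusted p = 0.045). Aldh1a3, an enzyme of retinoic acid synthesis, had 1.42, 2.71 and 1.65 CPM against 9.72, 8.82 and 11.4 CPM (log2 fold change -2.39, edgeR adjusted p = 0.0379), and nc shRNA replicate 1 was the lowest of its controls at 3.88 CPM.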
